A study of Oryctolagus cuniculus with 6 samples.

Results

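Genes of apoptosis, comprising the caspases, the BCL2 family and the death receptors with their partners, were examined in the conjunctiva of rabbits with dry eye disease (DED). The set was a list of 49 gene symbols, and a gene was counted as measured when the array held a probe set whose only annotated symbol was that gene. By this rule 37 of the 49 genes were measured, each by 1 probe set, among 15587 genes with such a probe set in all. The other 12 genes had no probe set with that single symbol and have no value here: BCL2L2, BOK, BAD, BBC3, PMAIP1, TNFRSF10A, FADD, RIPK3, MLKL, DFFA, DFFB and MDM2. The necroptosis genes RIPK3 and MLKL were thus absent from the comparison, as were 3 of the 8 BH3-only genes.

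Apoptosis is carried out by caspases, proteases that are made as inactive precursors. In the extrinsic route, a ligand binds a death receptor at the cell surface, and adaptor proteins gather and activate the initiator caspases. In the intrinsic route, proteins of the BCL2 family decide whether the outer membrane of the mitochondrion is opened, and released cytochrome c then assembles the apoptosome, which activates a further initiator caspase. On the ocular surface, death of epithelial and goblet cells is a known feature of dry eye. The roles given for each gene are those known from human and mouse cells.

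The tissue was full-thickness conjunctiva with Tenon's capsule from adult male Dutch Belted rabbits, whose nictitating membranes had been surgically removed in both groups. In the DED group, the T cell mitogen concanavalin A (ConA) had been injected into the periorbital lacrimal glands on days 1, 8 and 14, and tissue was taken on day 18. The naive group was healthy, and no injection of it is described, so the effects of injection and of ConA cannot be told apart. Each group comprised 3 arrays, and each array was hybridized with pooled RNA, of 3 animals (6 eyes) according to the design text of the series and of fewer according to the methods of the paper. Replicate error here is therefore the spread between pools, and the number of arrays limits the precision. Levels are log2 values of the Robust Multi-chip Analysis (RMA), which sets the arrays to nearly the same distribution. A difference of 1 on this scale is a doubling. DED minus naive was tested by limma. P-values were adjusted by the Benjamini-Hochberg method across the 23364 probe sets of the table, and a gene was called higher or lower at an adjusted p under 0.05.

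Conjunctival markers were present in both groups, and markers of several other cell types differed between them. The median level of all probe sets was 6.18 to 6.2 on the 6 arrays, and correlations across probe sets were r = 0.9938 to 0.9947 within a group and r = 0.9883 to 0.9902 between a naive and a DED array. Of the conjunctival epithelium list, 3 of 14 measured genes were higher and 3 lower in DED, and its direction depended on the measure: the log2 of the summed level was 13.91 to 13.92 in naive and 14.00 to 14.04 in DED arrays, while the mean log2 level was 9.69 to 9.71 in naive and 9.62 to 9.64 in DED arrays. KRT4, KRT5 and MUC4 rose, KRT8, KRT18 and MUC5AC fell, and 8 of the 14 genes had negative log2 fold changes. Of the leukocyte list, 14 of 17 were higher and 0 lower, and the summed level was 11.81 to 11.88 in naive and 12.49 to 12.50 in DED arrays. The 3 that did not pass were CD3E, CD2 and CD5, known as T cell genes, with log2 fold changes of -0.003, 0.32 and 0.24. Dividing cell markers were higher in 9 of 10 (summed level 9.35 to 9.40 in naive, 10.12 to 10.17 in DED). Kidney tubule markers, foreign to conjunctiva, were higher in 12 of 13 (11.39 to 11.41 in naive, 12.23 to 12.26 in DED), and erythroid markers were higher in 2 of 6. The summed erythroid level (9.10 to 9.20 in naive, 11.77 to 11.81 in DED) was mostly that of HBB2, a beta globin with a mean of 11.60 in DED, and the mean log2 level of the list differed by 0.989. Besides HBB2 only ALAS2, an enzyme of haem synthesis, rose, and the other 4 genes had log2 fold changes of -0.10 to 0.23. Of the endothelial list, 2 of 8 were higher, and of the stromal list 3 of 8 were higher and 2 lower. None of these markers was at 0 on any array, which does not show that each was expressed. The erythroid genes AHSP and EPB42 and the endothelial gene TEK lay among the dimmest 30% of probe sets. No array stood apart from its group in these lists, and their part in the results on cell death genes was not tested. In bulk tissue, fewer cells of a type and less RNA per cell cannot be told apart.

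**Figure D1:**
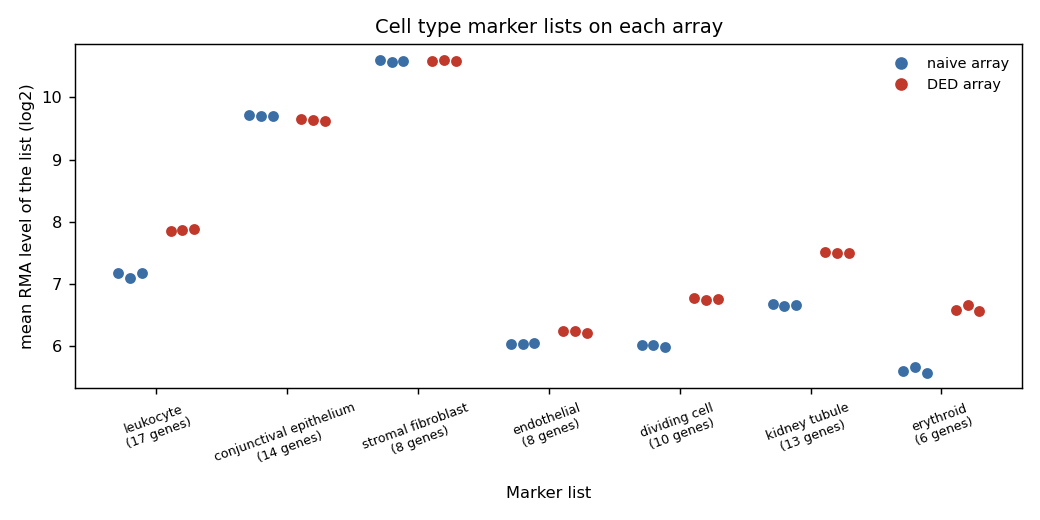
Mean RMA level (log2) of each marker list on each array, with 3 naive arrays (blue) and 3 DED arrays (red) per list and no error bars, since each point is 1 array. The leukocyte list lies at 7.10 to 7.18 in naive and at 7.86 to 7.88 in DED arrays, and the kidney tubule list at 6.64 to 6.68 and 7.50 to 7.52.

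Cell death genes were altered in both directions in DED, with 3 changes larger than 1.5-fold. Among the genes past the threshold, BIRC3 and BCL2A1, both inhibitors of cell death, and the death receptor FAS rose most, followed by the death ligand TNFSF10 and the effector caspase CASP6. BCL2, the founding inhibitor of its family, and TNFRSF21, the death receptor DR6, fell. In all, 5 of the 37 measured genes were higher and 2 lower, which is 18.9% of them, where 7.1% of all probe sets passed the test (4.41% higher and 2.69% lower). None of the 37 lay among the 30% dimmest probe sets, and outside these 9.35% of probe sets passed. Dimness was judged by the mean of all 6 arrays, so higher DED levels count towards it. FAS and BCL2A1 had naive means of 5.13 and 5.15, under the median level of 6.18 to 6.2 on the naive arrays. Whether they would count as dim on the naive arrays alone was not tested. The median log2 fold change was 0.06 over the 37 genes and -0.01 over all probe sets.

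**Figure D2:**
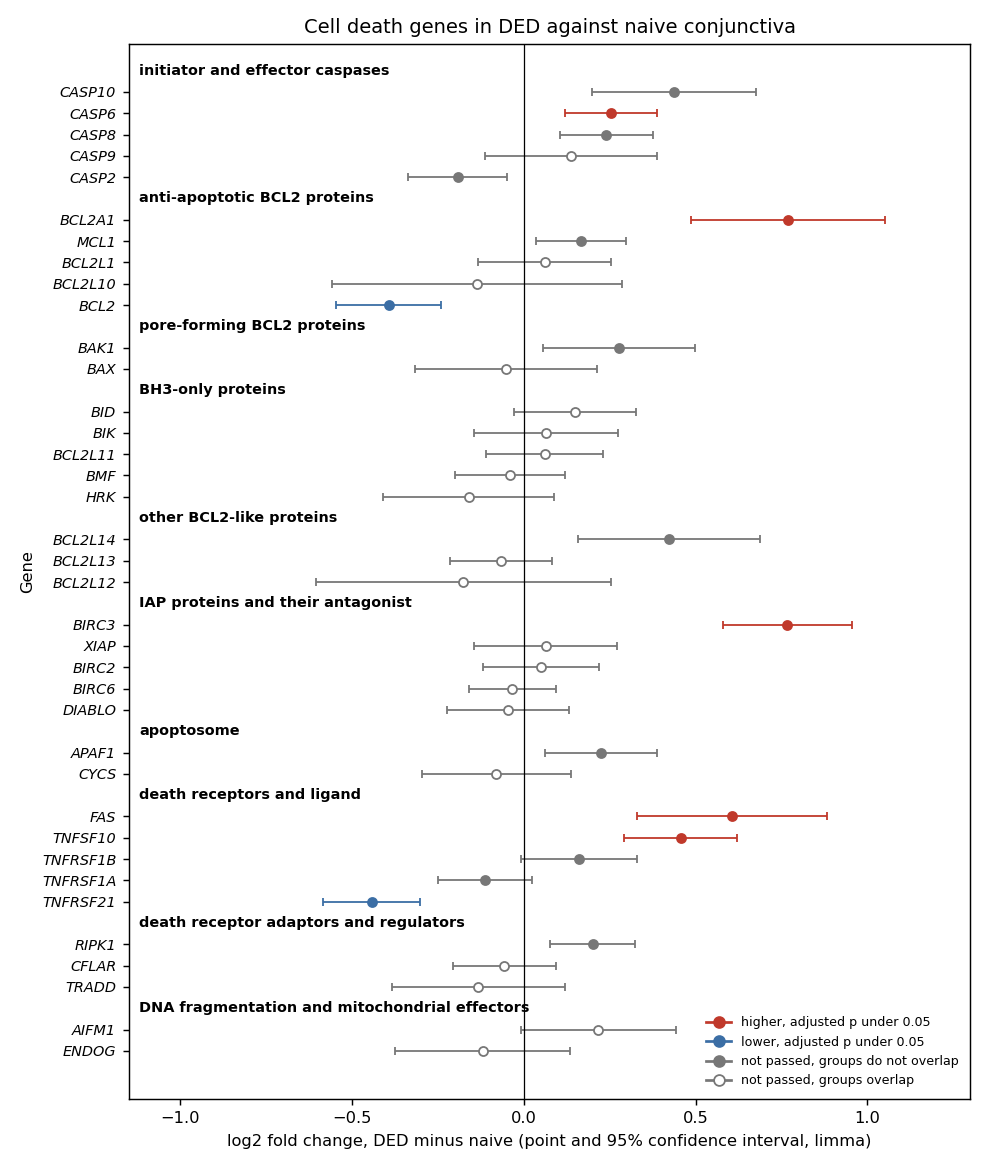
Log2 fold change (DED minus naive, x axis) of each of the 37 measured genes with its 95% confidence interval from limma, arranged by role. Red and blue points passed an adjusted p under 0.05 as higher (5 genes) or lower (2 genes), grey points did not, and an open point marks a gene whose naive and DED arrays overlap (20 genes).

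The values of the 3 DED arrays lay wholly above or below those of the 3 naive arrays in 17 of the 37 genes (45.9%), where this held for 27.8% of all probe sets and for 33.9% of those outside the dimmest 30%. DED was above naive in 13 genes, where 13.4% of all probe sets lay this way, and below in 4, where the share was 14.5%. At an unadjusted p under 0.05, 12 genes were higher and 3 lower, or 40.5% of the 37, where 21.9% of all probe sets passed this mark (11% higher and 10.9% lower). The 30 genes that did not pass the adjusted test had log2 fold changes between -0.19 and 0.44. For a single gene an exact two-sided permutation test of 3 against 3 arrays cannot go below p = 0.1, which is the value for each gene without overlap.

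**Figure D3:**
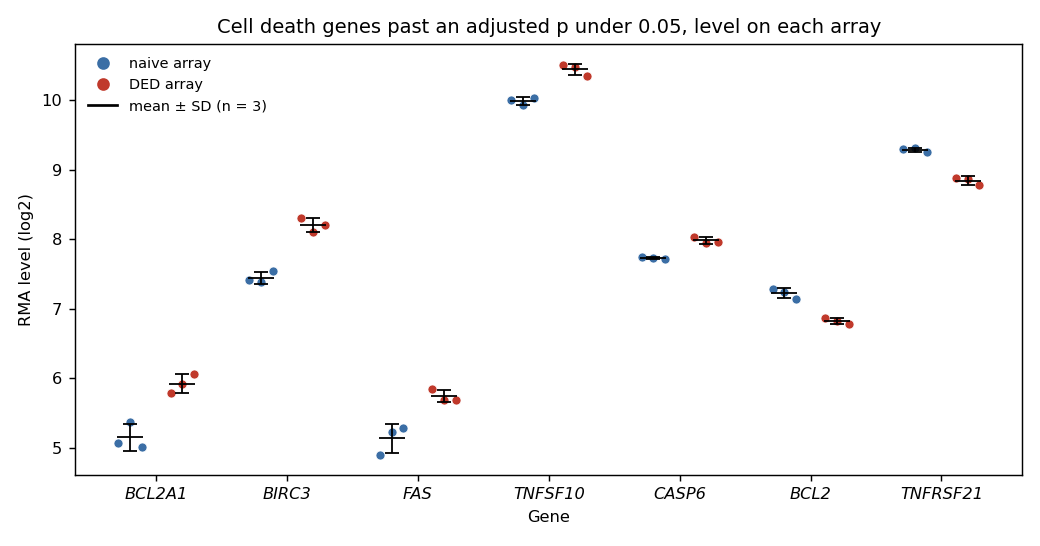
RMA level (log2, y axis) of the 7 genes past an adjusted p under 0.05 on each of the 3 naive arrays (blue) and 3 DED arrays (red), with the mean and SD of each group as black bars. Naive and DED arrays do not overlap in any of the 7 genes, and the narrowest gap between them is 0.20, in CASP6.

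Among the receptors and the ligand of the extrinsic route, 2 of 5 measured genes rose, 1 fell and 2 did not pass the test, and none of the 5 had overlapping groups. For comparison, 7.1% of all probe sets passed, and 27.8% had no overlap (33.9% outside the dimmest 30%). FAS, the receptor for FAS ligand, was at 4.89, 5.23 and 5.28 on the naive arrays and at 5.84, 5.69 and 5.69 on the DED arrays. Naive replicate 1 was the low array of its group, and all DED arrays exceeded all naive ones by at least 0.41. The increase was 1.52-fold, a log2 fold change of 0.61 (standard error 0.12, 95% confidence interval 0.33 to 0.88, adjusted p = 0.0283, limma). Without naive replicate 2 (adjusted p = 0.066) or DED replicate 1 (0.101), 2 (0.0796) or 3 (0.0777), FAS did not pass.

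TNFSF10, the ligand TRAIL, was at 10.00, 9.93 and 10.04 in naive and at 10.51, 10.48 and 10.35 in DED conjunctiva. The groups were separated by 0.31, which is more than the range within either. TNFSF10 rose 1.37-fold (log2 fold change 0.46, standard error 0.07, 95% confidence interval 0.29 to 0.62, adjusted p = 0.012 from limma). Leaving out naive replicate 2, DED replicate 1 or DED replicate 2 gave adjusted p = 0.0521, 0.0537 and 0.0514. The gene of its receptor TNFRSF10A had no single-symbol probe set.

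TNFRSF21 (DR6), a death receptor with a cytoplasmic death domain, was the receptor that fell. Its level was 9.30, 9.31 and 9.26 on the naive arrays and 8.89, 8.87 and 8.78 on the DED arrays. The 3 naive values lay within 0.05 of each other, and the DED values were lower by at least 0.37. It fell 1.36-fold (log2 fold change -0.44, standard error 0.06, 95% confidence interval -0.58 to -0.30, adjusted p = 0.00756, limma), and it passed the test without any 1 of the 6 arrays (adjusted p = 0.029 to 0.0378).

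The receptors of tumour necrosis factor itself did not pass the test. TNFRSF1A, the receptor with a death domain that most cells carry, had a log2 fold change of -0.11 (95% confidence interval -0.25 to 0.02, adjusted p = 0.306, limma), with DED arrays at 9.12 to 9.21 and naive arrays at 9.25 to 9.31. TNFRSF1B, which has no death domain and is prominent on leukocytes, had a log2 fold change of 0.16 (interval -0.01 to 0.33, adjusted p = 0.25). Its groups were parted by 0.01 only.

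The adaptors and regulators that act below these receptors showed no call. RIPK1, a kinase that joins survival and death signals of the TNF receptor complex, was at 7.31, 7.30 and 7.34 in naive and at 7.51, 7.51 and 7.53 in DED conjunctiva. Its DED arrays were all higher, by at least 0.17, and both groups were tight (SD 0.02 in naive and 0.01 in DED). The log2 fold change was 0.20 (standard error 0.05, 95% confidence interval 0.08 to 0.32, adjusted p = 0.077, limma). In a one-way analysis of variance, which estimates the spread from each gene alone, the adjusted p was 0.0101. The paper names such an analysis for differences among groups but the protocol of its array software for the arrays. The analysis of variance here may therefore differ from the test of the authors. RIPK1 passed in 0 of the 6 limma fits that left out 1 array (adjusted p = 0.14 to 0.195). The log2 fold change of TRADD, the adaptor that binds TNFRSF1A, was -0.13 (interval -0.38 to 0.12, adjusted p = 0.521), and that of CFLAR, the catalytically inactive relative of CASP8 that can block its activation, was -0.06 (interval -0.21 to 0.09, adjusted p = 0.659), and the groups overlapped in both genes.

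Of the 5 caspases, CASP6 rose and the other 4 did not pass the test, although 3 of the 4 had an unadjusted p under 0.05. Of all probe sets 7.1% passed the test and 21.9% reached that unadjusted mark. CASP6, an effector caspase that cleaves nuclear lamins, was at 7.75, 7.73 and 7.71 in naive and at 8.04, 7.95 and 7.96 in DED arrays. The groups were parted by 0.20, and the rise was 1.19-fold (log2 fold change 0.25, standard error 0.06, 95% confidence interval 0.12 to 0.39, adjusted p = 0.0477 from limma). This call was lost without any 1 of the 6 arrays: adjusted p was 0.115, 0.132 and 0.126 without naive replicates 1, 2 and 3, and 0.142, 0.104 and 0.11 without DED replicates 1, 2 and 3.

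CASP8 and CASP10, the initiators recruited to death receptors, were close to the threshold. CASP10 was at 6.64, 6.58 and 6.75 in naive and at 7.13, 6.91 and 7.24 in DED, with DED replicate 2 nearest to the naive arrays. Its log2 fold change was 0.44 (95% confidence interval 0.20 to 0.67, adjusted p = 0.0511, limma), and it did not pass in the one-way analysis of variance either (0.129). Leaving out DED replicate 2 gave an adjusted p of 0.0335, whereas leaving out any 1 of the other 5 arrays gave 0.0894 to 0.151. CASP8 was at 7.54, 7.58 and 7.54 in naive and at 7.77, 7.85 and 7.76 in DED, a separation of 0.18. The log2 fold change of CASP8 was 0.24 (interval 0.10 to 0.38, adjusted p = 0.0569). Its adjusted p was 0.0359 in the one-way analysis of variance, and 0.115 to 0.156 in the 6 fits that left out 1 array, none of which it passed.

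CASP9, the initiator of the apoptosome, had naive values of 6.54, 6.55 and 6.49 and DED values of 6.86, 6.67 and 6.46. The DED arrays spread on both sides of the naive ones, and the log2 fold change of 0.14 was not distinguishable from 0 (interval -0.11 to 0.39, adjusted p = 0.509, limma). CASP2, an initiator linked to stress and DNA damage, was the caspase with the lower values in DED, at 7.23 to 7.27 against 7.36 to 7.49 in naive. Its log2 fold change was -0.19 (interval -0.34 to -0.05, adjusted p = 0.123).

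Inhibitors of apoptosis within the BCL2 family moved in opposite directions, with 1 of 5 measured genes higher, 1 lower and 3 not passing the test. Across all probe sets 4.41% were higher and 2.69% lower. BCL2A1, an inhibitor expressed mainly in blood and immune cells, was at 5.07, 5.37 and 5.01 in naive and at 5.79, 5.91 and 6.06 in DED conjunctiva. Naive replicate 2 was the highest of its group and still lay 0.42 under the lowest DED array. BCL2A1 rose 1.71-fold (log2 fold change 0.77, standard error 0.12, 95% confidence interval 0.49 to 1.05, adjusted p = 0.013, limma). Without naive replicate 1 or DED replicate 2 the adjusted p was 0.0551 and 0.0512. Of the leukocyte markers, 14 of 17 were higher on the same DED arrays, and their part in this increase was not tested.

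BCL2 was at 7.28, 7.24 and 7.14 on the naive arrays and at 6.87, 6.83 and 6.78 on the DED arrays. Every DED value was lower than every naive value, by at least 0.27. BCL2 fell 1.31-fold (log2 fold change -0.39, standard error 0.06, 95% confidence interval -0.55 to -0.24, adjusted p = 0.0161 from limma). It passed without naive replicate 3 (adjusted p = 0.0307), whereas leaving out naive replicate 1 or 2 gave 0.0615 and 0.066 and leaving out DED replicates 1, 2 and 3 gave 0.052, 0.0601 and 0.0626. The intervals of BCL2 and BCL2A1 lie on opposite sides of 0.

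The remaining inhibitors did not pass. MCL1, a short-lived inhibitor, had DED values of 9.22 to 9.27 above naive values of 9.04 to 9.11, with a log2 fold change of 0.17 (interval 0.04 to 0.30, adjusted p = 0.137, limma). BCL2L1, whose long form is the inhibitor BCL-XL, had a log2 fold change of 0.06 (interval -0.13 to 0.25, adjusted p = 0.727). BCL2L10, for which the arrays spread from 5.70 to 6.21 in naive and from 5.51 to 5.99 in DED, had a log2 fold change of -0.14 (interval -0.56 to 0.28, adjusted p = 0.712).

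Genes that promote opening of the mitochondrial membrane showed no call. BAK1, which forms pores in that membrane, was at 7.62, 7.52 and 7.42 in naive and at 7.64, 7.86 and 7.89 in DED. DED replicate 1 was only 0.02 above the highest naive array. The log2 fold change of BAK1 was 0.28 (interval 0.06 to 0.50, adjusted p = 0.141, limma), and that of its partner BAX was -0.05 (interval -0.32 to 0.21, adjusted p = 0.833).

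The BH3-only genes, whose proteins bind the inhibitors or activate BAX and BAK1, had a median absolute log2 fold change of 0.06, where that of all probe sets was 0.11. In all 5 of them the groups overlapped, none passed the adjusted test by limma, and 0 had an unadjusted p under 0.05. These marks are missed by most probe sets: 27.8% of all had no overlap, 7.1% passed and 21.9% had an unadjusted p under 0.05. None of the 5 passed in the one-way analysis of variance either, where 6% of all probe sets did. HRK, which is best known from neurons, had the largest log2 fold change of these, at -0.16, with naive values of 7.89, 7.97 and 7.74 and DED values of 7.82, 7.52 and 7.78 (interval -0.41 to 0.09, adjusted p = 0.43, limma). BID, which links CASP8 to the mitochondrion, was at 0.15 (interval -0.03 to 0.33), BIK at 0.06 (-0.15 to 0.27), BCL2L11 (BIM) at 0.06 (-0.11 to 0.23) and BMF at -0.04 (-0.20 to 0.12).

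Of the other BCL2-like genes, none passed. BCL2L14 (BCL-G) was at 5.87, 6.19 and 5.98 in naive and at 6.33, 6.38 and 6.60 in DED conjunctiva. The groups were parted by 0.14, and the log2 fold change was 0.42 (interval 0.16 to 0.69, adjusted p = 0.0771, limma). BCL2L13, a protein of the outer mitochondrial membrane, had a log2 fold change of -0.07 (interval -0.21 to 0.08), and BCL2L12 had one of -0.18 with a wide interval (-0.61 to 0.25).

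Among the inhibitor of apoptosis proteins (IAP), BIRC3 rose and the others did not pass. BIRC3 (cIAP2), a ubiquitin ligase of the TNF receptor complex, was at 7.41, 7.38 and 7.54 in naive and at 8.31, 8.11 and 8.21 in DED. With 0.57 between the highest naive and the lowest DED array, BIRC3 had the widest separation of the 37 genes. It was 1.7-fold higher (log2 fold change 0.77, standard error 0.08, 95% confidence interval 0.58 to 0.95, adjusted p = 0.00291 from limma), which was also the lowest adjusted p of the 37. It passed without any 1 of the 6 arrays (adjusted p = 0.00994 to 0.0182). Leukocyte markers were higher on these DED arrays as given above, and their part in the increase of BIRC3 was not tested.

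BIRC2 (cIAP1), the closest relative of BIRC3, had naive values of 6.83, 6.72 and 6.78 and DED values of 6.93, 6.80 and 6.75. The arrays overlapped, and the log2 fold change of 0.05 had an interval of -0.12 to 0.22 (adjusted p = 0.741, limma). The difference between BIRC2 and BIRC3 was not tested. XIAP, which inhibits caspases directly, had a log2 fold change of 0.06 (interval -0.14 to 0.27), BIRC6, a giant IAP that also conjugates ubiquitin, one of -0.03 (-0.16 to 0.09), and DIABLO, the mitochondrial antagonist of the IAPs, one of -0.05 (-0.22 to 0.13). All 3 had overlapping groups.

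Neither gene of the apoptosome passed. APAF1, its scaffold, was at 6.50, 6.50 and 6.35 in naive and at 6.64, 6.65 and 6.73 in DED, without overlap, and its log2 fold change was 0.22 (interval 0.06 to 0.39, adjusted p = 0.114, limma). CYCS, which encodes cytochrome c, had a log2 fold change of -0.08 (interval -0.30 to 0.14, adjusted p = 0.671). AIFM1, a mitochondrial flavoprotein that can move to the nucleus in dying cells, was at 7.50, 7.28 and 7.27 in naive and at 7.65, 7.43 and 7.62 in DED. Naive replicate 1 exceeded DED replicate 2, and the log2 fold change was 0.22 (interval -0.01 to 0.44, adjusted p = 0.247). ENDOG, a mitochondrial nuclease, had one of -0.12 (interval -0.37 to 0.13, adjusted p = 0.576).

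Some of these genes are neighbours. In the RefSeq gene order of assembly mOryCun1.1, BIRC3 and BIRC2 stand next to each other with 0 protein-coding genes between them, and CASP8, CASP10 and CFLAR follow one another in that order. Within the first pair the log2 fold changes were 0.77 and 0.05, and within the second group they were 0.24, 0.44 and -0.06. BID and BCL2L13, also adjacent, were at 0.15 and -0.07. The differences between neighbours were not tested.

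Further genes of the same pathways, outside the 49, had no call. Of 73 such genes 56 were measured, and 0 were higher and 0 lower at an adjusted p under 0.05 by limma, where 7.1% of all probe sets passed. At an unadjusted p under 0.05, 3 were higher and 7 lower, where 21.9% of all probe sets passed. By the one-way analysis of variance 1 of the 56 passed, where 6% of all probe sets did. The median log2 fold change of the 56 was 0.01. Of the 14 measured genes of TNF receptor signalling log2 fold changes ran from -0.23 to 0.32, of 10 genes of the p53 pathway from -0.22 to 0.17, and of 32 other cell death genes from -0.32 to 0.30.

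BIRC3 and TNFRSF21 passed under all 16 alternatives that were tried, the replicate block included. The other 5 called genes each lost the call when 1 or more of the arrays was left out. With an intensity trend in eBayes, which lets the shared variance follow the level of the probe sets, all 7 calls were kept and 6 genes were added, CASP8, CASP10, MCL1, BAK1, BCL2L14 and RIPK1, all higher in DED. In that fit 13% of all probe sets passed. Without the dimmest 30% of probe sets all 7 were kept and CASP8, CASP10, BCL2L14 and RIPK1 were added, where 15.2% of the remaining probe sets passed.

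**Figure D4:**
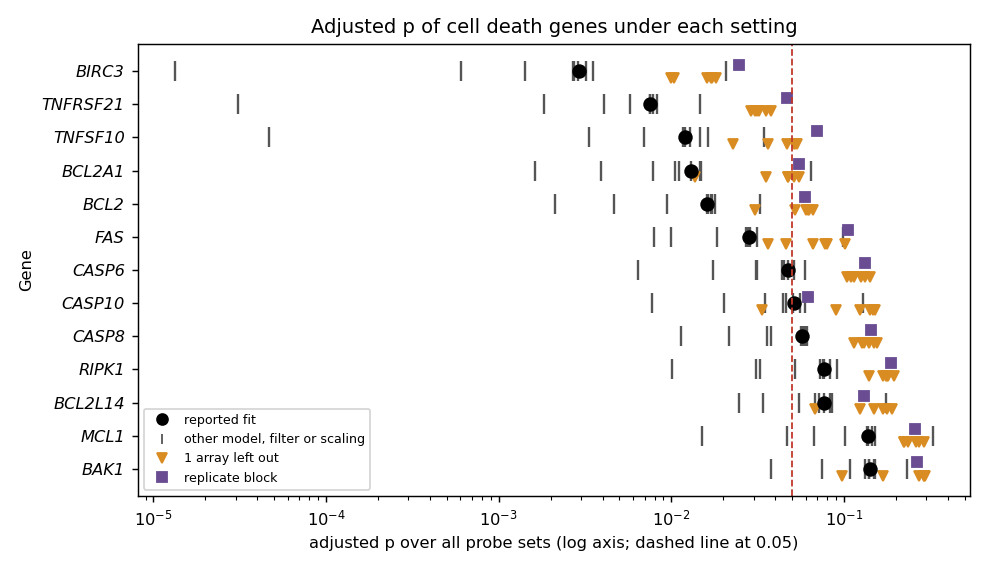
Adjusted p (x axis, log scale) of the 13 genes that passed under at least 1 setting, with the reported limma fit as a black point, other models, filters and scalings as grey ticks, fits without 1 array as orange triangles and the replicate block as a purple square. All marks of BIRC3 and TNFRSF21 lie left of the dashed line at 0.05, and CASP10 has marks on both sides of it.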

How the data were processed

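Gene expression was measured on Affymetrix Rabbit Gene 1.0 ST arrays, 3 for naive and 3 for DED conjunctiva. The deposited log2 values are RMA values, which the authors computed in the Transcriptome Analysis Console (version not given in the sources used here). RMA corrects the background, normalizes by quantiles and summarises the probes of a transcript, so a shift of all transcripts together cannot be seen. Scanner files were not used here.

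DED minus naive was fitted over all 23364 probe sets in limma 3.58.1 (lmFit, then eBayes; R 4.3.3; 4 residual and 2.55 prior degrees of freedom). Tables and figures were made in Python 3.11.15 with pandas 2.3.3, numpy 2.4.6 and matplotlib 3.10.9. In the platform annotation 15795 probe sets carry 1 symbol, 397 several, and 7172 are not listed. Of the 37 measured genes, 35 were found by Entrez identifier in RefSeq (mOryCun1.1), all under the same symbol, and BCL2 and BIK were not. The code of the fit was run on simulated data with independent noise, and no result of that run is used here. The genes and lists were chosen with earlier results of these data known. Every measured gene is named, and those past the threshold, or with the largest change in a role group without one, are given on every array, CASP8, CASP9, CASP10 and BIRC2 in addition after their values were seen. P-values measure the spread between pools. No batch is given in the sources used here. No sequences are shown.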

Additional observations from a re-analysis of the deposited data

How the results depend on the processing

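Of 592 comparisons, for 37 genes under 16 alternatives, 545 kept their side of the threshold, 29 lost a call (5 genes) and 18 gained one (6 genes). None was reversed, but a reversal was counted only for a gene called in either fit. The arrays of such genes did not overlap between groups, so leaving out 1 array could not turn their sign. Some genes without a call changed sign among the alternatives, for example BAX (log2 fold change -0.16 to 0.04) and BCL2L10 (-0.27 to 0.02). Against 5 genes higher and 2 lower in the reported fit, an intensity trend in eBayes gave 11 higher and leaving out the dimmest 30% of probe sets gave 9 higher, both with 2 lower. Leaving out 1 array gave 2 to 4 higher and 1 to 2 lower. The cause of these differences was not tested. The fit with the trend used all arrays and all probe sets, whereas the others used fewer probe sets or fewer arrays.

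The replicate numbers of the labels are not stated to pair naive with DED pools. Deviations from the group means correlated at r = -0.015, 0.024 and -0.057 for same-numbered arrays. Such deviations sum to 0 within each group, so these values cannot decide whether same-numbered pools were handled together. In the fit with the replicate block (2 residual degrees of freedom) 1 gene was higher (BIRC3) and 1 lower (TNFRSF21), and 689 of all probe sets passed against 1659. Not every array correlated best with its own number, which cannot decide on a pairing either, since the deviations sum to 0 within each group. With robust eBayes or median centring CASP6 did not pass (adjusted p = 0.0514 and 0.0595), and in the one-way analysis of variance BCL2A1 and FAS did not (0.0646 and 0.099), while MCL1 (0.0466), CASP8 and RIPK1 did. Of the further pathway genes, 3 of 56 passed with the intensity trend, where 13% of all probe sets did. With the dimmest probe sets left out 2 of 53 passed, where 15.2% of the remaining probe sets did. The number of arrays limits how small a change can be called: only 8 of the 37 genes had an interval that stayed within 0.25 of 0 on the log2 scale.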
